A study of Mus musculus with 18 samples.

Results

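Neutrophil genes of the mouse nasal mucosa were followed in 18 RNA sequencing libraries: S100a8, S100a9, Cxcr2, Csf3r, Lcn2, Ngp, Camp, Ltf, Mpo and Elane. They were chosen by gene name, and all 10 are present among the 54532 genes of the count table. The series compares 3 groups of 6 libraries each. C10 mice are taken to have received papain like CRS mice, since the protocol gives the compound to that model, and the compound C10 was instilled at 10 mg/mL, 10 µL into each side of the nose, once a day for 10 days counted from the first papain dose. CRS mice, a model of chronic rhinosinusitis, received papain, a plant protease, at 20 µg in 20 µL of buffer into the nose on days 0 to 2 and again on days 7 to 11. CON mice are the controls, and the labels do not say what they received. By the series title C10 inhibits APE1, a DNA repair enzyme that also sets the redox state of transcription factors. No vehicle arm for the compound is recorded, so the compound and its solvent cannot be told apart. The labels do not state the strain, sex and age of the mice, the hour of collection or how many mice went into a library, so a p-value here reflects only how far these libraries scatter, which may be technical.

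Neutrophils are short-lived white blood cells that leave the bone marrow and enter inflamed mucosa, where they kill microbes with granule proteins and oxidants. Granule genes are transcribed in a fixed order while the cell matures in the marrow: the proteins of azurophil granules, such as myeloperoxidase and neutrophil elastase, at the promyelocyte stage, and those of specific granules, such as lactoferrin, cathelicidin and Ngp, at the myelocyte stage. Mature neutrophils outside the marrow carry little mRNA of these granule genes but much of the calprotectin subunits S100a8 and S100a9, of the chemokine receptor Cxcr2 and of the receptor for G-CSF, Csf3r. Lcn2 and Ltf are also made by epithelial cells and glands of the airway, so their RNA in whole mucosa need not come from neutrophils.

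Libraries held 15883573 to 18128186 counts in C10, 16531779 to 17523368 in CRS and 16510920 to 18433866 in CON. A count of 3, used as the floor of detection, equals 0.163 to 0.193 counts scaled to library size (CPM), and covers counting error only. Omp, the marker of mature olfactory neurons, lay between 1241 and 3490 CPM, and Obp1a, an odorant-binding protein of nasal glands, between 3736 and 35310 CPM, so that the tissue held olfactory and glandular material in every library. Ly6g, a surface marker of mouse neutrophils, had only 59 counts in all 18 libraries and was at 0 in 5 of them, with its highest level at 0.869 CPM in CON 3. Retnlg, a second neutrophil marker, was detected in every library at 0.302 to 8.84 CPM. Along the first principal component of all genes (32.7% of the variance) CRS 2 and CRS 5 lay farthest out at one end and CRS 1 at the other. In these bulk samples, fewer cells of a type and less RNA per cell cannot be told apart.

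Levels of the neutrophil genes spanned 4 orders of size. Per length, as fragments scaled to gene length and library size (FPKM) and averaged over the 18 libraries, Ltf stood at 4897 FPKM and was the 11th most abundant of all genes in the table. Lcn2 followed at 321 FPKM, S100a9 at 91.5 FPKM and S100a8 at 42.3 FPKM, and the receptors Csf3r at 20.6 FPKM and Cxcr2 at 7.17 FPKM. The granule genes were lowest: Ngp averaged 4.56 FPKM, Camp 1.81 FPKM, Elane 0.841 FPKM and Mpo 0.454 FPKM. The order of the most abundant members held library by library, with Ltf above Lcn2, Lcn2 above S100a9, S100a9 above S100a8 and Csf3r above Cxcr2 in 18 of 18 libraries, and S100a8 above Csf3r in 17. Below that the order was loose: Cxcr2 was above Ngp in 14 libraries and below it in 4. Ngp was above Camp in 14 libraries, below it in 2 and tied at 0 in 2, Camp was above Elane in 13, below in 3 and tied at 0 in 2, and Elane was above Mpo in 9, below in 3 and tied at 0 in 6; these orders were not tested. Ltf alone took 0.920% to 2.95% of all counts in a library.

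No neutrophil gene passed the test in any of the 3 comparisons. Of the 10, 7 had enough counts to be tested; Camp, Mpo and Elane reached 10 counts in too few libraries, and their values come from a fit without that filter. With edgeR's quasi-likelihood test and Benjamini-Hochberg adjustment over 18291 genes, 0 of 7 were called in CRS against CON at an adjusted p under 0.05, where 0.00547% of all genes were called. For C10 against CRS 0 of 7 were called, against 0.082% of all genes, and for C10 against CON 0 of 7, against 0.159%. At an unadjusted p under 0.05, 0 of 7 were reached in each comparison, while 14% of all genes passed in CRS against CON, 13.2% in C10 against CRS and 13.1% in C10 against CON. The libraries of the groups overlapped for all 10 genes in every comparison, and genes whose groups did not overlap made up 0.662% of the 18291 tested in CRS against CON, 0.88% in C10 against CRS and 1.82% in C10 against CON. DESeq2 also called 0 of 7 in each comparison. The direction was uneven: in CRS against CON 6 of 7 had a log2 fold change below 0 and 1 above, with a median of -0.43, while 49.2% of all genes were below 0 and 50.8% above. Values of C10 against CRS were above 0 for 7 of 7, with a median of 0.35 against 0.01 for all genes, of which 51.7% were above 0 and 48.3% below. Both comparisons share the CRS libraries, so the opposite signs are not separate observations. In C10 against CON 4 of 7 were below 0, with a median of -0.08, against 47.4% of all genes below 0 and 52.6% above.

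**Figure D1:**
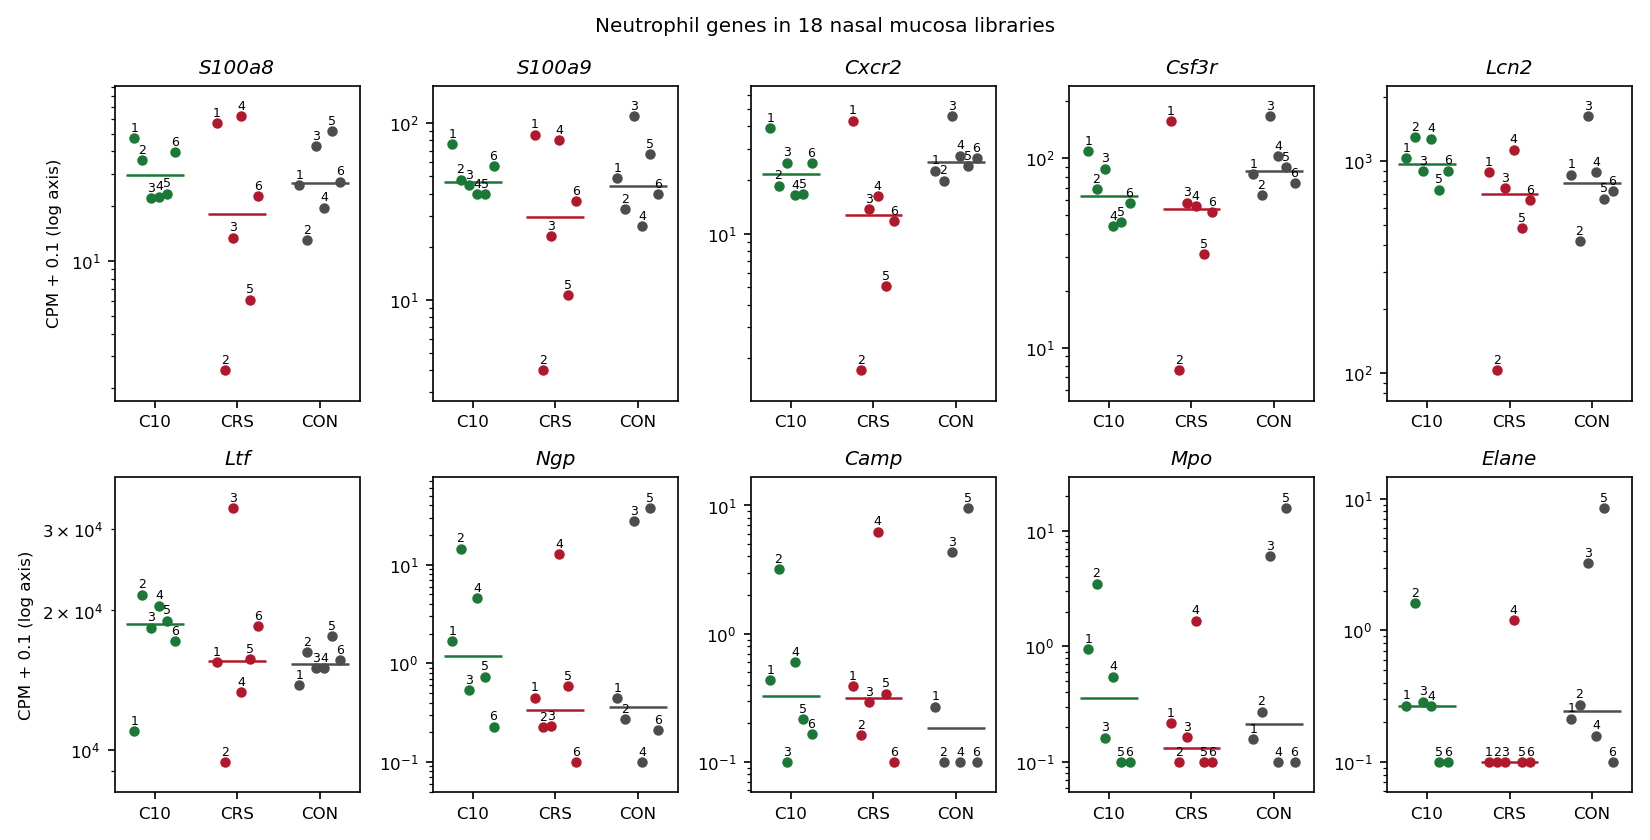
Level of each neutrophil gene in every library, as CPM plus 0.1 on a log axis, with C10, CRS and CON from left to right; points are libraries labelled by number and lines are group medians. CRS 2 is the lowest of the 18 libraries for S100a8, S100a9, Cxcr2, Csf3r, Lcn2 and Ltf, and all 3 groups overlap for every gene.

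S100a8 and S100a9 encode the subunits of calprotectin, a calcium-binding alarmin that makes up much of the neutrophil cytosol and holds zinc and manganese away from microbes. S100a8 (ENSMUSG00000056054) lies on chr3:90668978-90670035 of mm10, on the plus strand, and S100a9 (ENSMUSG00000056071) on chr3:90692632-90695721, on the minus strand, 22.6 kb away. Because these genes varied together more closely on the log2 CPM scale than any other pair of the 10, their promoters are printed here, from 250 bases before the RefSeq start to 50 bases after it (GRCm38.p6, the assembly also called mm10), 5′ to 3′ on the strand of the gene. Capitals mark matches on either strand to a C/EBP motif, TTNNGNAA, or to a PU.1 motif, GAGGAA, both factors of the myeloid lineage. The RefSeq start of S100a8 lies 93 bases downstream of the gene's start in the deposited table, and that of S100a9 at the same base.
S100a8 (chr3:90668821-90669120, plus strand): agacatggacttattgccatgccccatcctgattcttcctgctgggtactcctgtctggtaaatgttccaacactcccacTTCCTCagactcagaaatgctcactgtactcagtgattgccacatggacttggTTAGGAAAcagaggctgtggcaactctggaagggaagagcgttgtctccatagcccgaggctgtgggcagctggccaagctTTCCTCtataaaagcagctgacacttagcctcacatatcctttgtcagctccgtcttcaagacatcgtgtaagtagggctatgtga
S100a9 (chr3:90695672-90695971, minus strand): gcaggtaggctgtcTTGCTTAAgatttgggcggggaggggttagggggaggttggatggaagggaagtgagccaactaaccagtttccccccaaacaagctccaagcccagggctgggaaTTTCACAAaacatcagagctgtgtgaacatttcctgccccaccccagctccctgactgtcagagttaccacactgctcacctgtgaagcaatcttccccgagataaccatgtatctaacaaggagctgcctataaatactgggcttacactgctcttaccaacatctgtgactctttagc
S100a8 had 1 C/EBP match, at -117, and 2 PU.1 matches, at -170 and -36, counted from the RefSeq start; S100a9 had 2 C/EBP matches, at -236 and -130, and no PU.1 match. Over all 10 genes 5 promoters held the C/EBP letters and 7 the PU.1 letters, against 40.7% and 28.3% of 32851 RefSeq promoters of the same length. The C/EBP palindrome TTGCGCAA and an NF-kB motif, GGGANTTCC, were in 0 of the 10, against 0.183% and 1.68% of all promoters. A match is a string of letters in this window and says nothing of binding.

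S100a8 reached 22.0, 29.5 and 47.2 CPM in C10 libraries as lowest, median and highest, 2.41, 17.96 and 61.9 CPM in CRS libraries and 12.9, 26.6 and 51.2 CPM in CON libraries. The CRS group thus held both the lowest library of the series, CRS 2, and the highest, CRS 4, and spanned 25.7-fold, while C10 spanned 2.15-fold and CON 3.98-fold. The log2 fold change was -0.14 ± 0.55 (SE; edgeR adjusted p = 0.932) in CRS against CON, 0.22 ± 0.55 (0.913) in C10 against CRS and 0.08 ± 0.55 (0.966) in C10 against CON. Without CRS 2 and CRS 5, the lowest CRS libraries, the value was 0.38 in CRS against CON and -0.31 in C10 against CRS. The sign in CRS against CON also turned without CRS 2 (0.11), CRS 3 (0.01), CRS 5 (0.08) or CON 5 (0.09) alone, so it has no settled direction.

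S100a9 showed the same spread. It had 39.7, 46.2 and 75.9 CPM in C10, 3.90, 29.5 and 86.2 CPM in CRS and 26.0, 44.3 and 109 CPM in CON, again as lowest, median and highest. All 6 C10 libraries lay above the CRS median for both subunits. The log2 fold change was -0.43 ± 0.53 (SE; edgeR adjusted p = 0.737) in CRS against CON, 0.35 ± 0.53 (0.843) in C10 against CRS and -0.08 ± 0.52 (0.964) in C10 against CON. Without CRS 2 and CRS 5 it was 0.07 in CRS against CON and -0.16 in C10 against CRS. Per length, S100a9 stood 1.72 (CRS 4) to 3.40 (CON 3) times above S100a8, with a median ratio of 2.14 in FPKM.

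Cxcr2 is the receptor through which neutrophils follow chemokines such as Cxcl1, Cxcl2 and Cxcl5 into tissue; it lies on chr1:74153989-74161246, plus strand (ENSMUSG00000026180). It had 16.3, 21.6 and 39.0 CPM in C10 as lowest, median and highest, 1.61, 12.7 and 43.0 CPM in CRS and 19.8, 25.1 and 45.4 CPM in CON. In CRS, 5 of the 6 libraries lay between 1.61 and 16.2 CPM, below every C10 and every CON library, while CRS 1 stood at 43.0 CPM, above every library but CON 3. The mean of CRS was 15.2 ± 14.7 CPM, against 27.5 ± 9.17 CPM in CON (SD, n = 6 each).
The log2 fold change of CRS against CON was -0.86 ± 0.48 (SE) and did not pass (edgeR adjusted p = 0.431). Without CRS 1 the log2 fold change was -1.52 and passed (edgeR adjusted p = 0.0414), and with limma-voom and sample quality weights it was -1.39 and passed (adjusted p = 0.0385). The whole table moved with these settings: 994 of 18452 genes (5.39%) were called without CRS 1 and 940 of 18291 (5.14%) by limma-voom, against 1 in the fit of all libraries. Against CRS, C10 gave 0.62 ± 0.48 (edgeR adjusted p = 0.627), with 6 of 6 C10 libraries above the CRS median, and 1.28 without CRS 1. In C10 against CON it was -0.24 ± 0.47 (edgeR adjusted p = 0.867).

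Csf3r, the receptor for the granulocyte growth factor G-CSF (ENSMUSG00000028859, chr4:126024550-126044440, plus strand), varied with Cxcr2. It had 43.5, 63.2 and 109 CPM in C10, 7.48, 53.8 and 156 CPM in CRS and 63.6, 85.9 and 166 CPM in CON, as lowest, median and highest. Of the CRS libraries, CRS 1 was again high, second of the 18, and CRS 2 and CRS 5 were the lowest of all. The log2 fold change was -0.68 ± 0.45 (SE; edgeR adjusted p = 0.510) in CRS against CON, 0.19 ± 0.45 (0.904) in C10 against CRS and -0.49 ± 0.45 (0.674) in C10 against CON. Leaving out CRS 1 moved it to -1.23 in CRS against CON and to 0.75 in C10 against CRS, and leaving out CRS 2 to -0.44 and -0.05.

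Lcn2 encodes lipocalin 2, which binds the iron carriers of bacteria and is stored in specific granules but also secreted by airway epithelium (ENSMUSG00000026822, chr2:32384633-32388252, minus strand). It had 732, 966 and 1298 CPM in C10, 103, 698 and 1129.7 CPM in CRS and 419.6, 790.0 and 1621 CPM in CON, as lowest, median and highest. Means were 1022 ± 226 CPM in C10, 666 ± 352 CPM in CRS and 861 ± 408 CPM in CON (SD, n = 6 each). All 6 C10 libraries lay above the CRS median, but not above the highest CRS library. The log2 fold change was -0.37 ± 0.39 (SE; edgeR adjusted p = 0.691) in CRS against CON, 0.62 ± 0.39 (0.529) in C10 against CRS and 0.25 ± 0.39 (0.822) in C10 against CON. Genes whose levels followed Lcn2 most closely over the 18 libraries, out of 16674 candidates, were Chil1, a chitinase-like protein (Pearson r 0.98), Cd177, a neutrophil surface protein (0.94), Reg3g, an antibacterial lectin of epithelium (0.94), Plekhs1 (0.93) and Prss30 (0.93). Summed over 12 genes of secretory airway epithelium, Reg3g among them, CPM were 15637 to 20893 in C10, 12208 to 15600.3 in CRS and 12787 to 18459 in CON; whether these cells account for the Lcn2 level was not tested.

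Ltf encodes lactoferrin, an iron-binding protein of specific granules and of gland secretions. The gene (ENSMUSG00000032496) lies on chr9:111019271-111042767, plus strand, 596.3 kb from the granule gene Ngp (ENSMUSG00000032484, chr9:110419747-110423012, plus strand), which in turn lies 570.1 kb from Camp (ENSMUSG00000038357, chr9:109847379-109849617, minus strand). The pair of promoters below is printed because both products are stored in the same granules and yet their RNA peaked in different libraries, Ngp in CON 5 and Ltf in CRS 3. Capitals again mark C/EBP and PU.1 matches.
Ngp (chr9:110419558-110419857, plus strand): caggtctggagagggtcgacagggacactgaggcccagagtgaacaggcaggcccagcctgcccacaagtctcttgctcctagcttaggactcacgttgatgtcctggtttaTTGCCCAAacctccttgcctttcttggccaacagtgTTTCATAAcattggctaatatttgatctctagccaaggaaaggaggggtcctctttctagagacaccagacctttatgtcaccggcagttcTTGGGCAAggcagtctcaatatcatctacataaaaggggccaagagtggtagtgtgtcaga
Ltf (chr9:111019042-111019341, plus strand): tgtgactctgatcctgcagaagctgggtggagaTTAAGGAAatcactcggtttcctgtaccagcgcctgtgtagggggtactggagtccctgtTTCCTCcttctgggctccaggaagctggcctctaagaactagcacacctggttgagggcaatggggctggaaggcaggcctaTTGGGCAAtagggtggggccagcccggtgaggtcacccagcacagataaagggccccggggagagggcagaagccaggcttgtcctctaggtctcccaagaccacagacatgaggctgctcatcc
Ngp had 3 C/EBP matches, at -138, -102 and -11, and no PU.1 match, and its RefSeq start lies 61 bases downstream of the start in the deposited table. Ltf had 2 C/EBP matches, at -217 and -75, and 1 PU.1 match, at -157, with its start 21 bases downstream. The Ltf match at -217 overlaps the only match of the 10 promoters to a Gfi1 motif, AAATCA, which 14% of all promoters hold.

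Ltf had 10972, 18688 and 21648 CPM in C10, 9410.1, 15579 and 33305.5 CPM in CRS and 13803, 15324 and 17593 CPM in CON, as lowest, median and highest. The CON libraries were close together, with a 1.27-fold range, while CRS spanned 3.54-fold between CRS 2 and CRS 3. The log2 fold change was 0.18 ± 0.24 (SE; edgeR adjusted p = 0.762) in CRS against CON, 0.03 ± 0.24 (0.977) in C10 against CRS and 0.21 ± 0.24 (0.750) in C10 against CON. In the library with the highest Ltf, CRS 3, the 15 nasal gland genes in the table also had their highest sum, 144751 CPM. Those sums were 28963 to 114224 CPM in C10, 18846 to 144751 CPM in CRS and 21187 to 76999 CPM in CON, and their part in the Ltf level was not tested. Per length, Ltf stood 7.04 times (CON 3) to 69.8 times (CRS 2) above Lcn2, with a median ratio of 15.1 in FPKM. The genes most like Ltf over the 18 libraries were Serinc2 (r 0.85), Pak4 (0.77), Rab15 (0.76), Tent5b (0.76) and Rassf10 (0.75), and none of them is on the lists used here.

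Ngp, neutrophilic granule protein, was near 0 in most libraries and high in a few. It had 0.128, 1.10 and 14.5 CPM in C10, 0, 0.239 and 12.8 CPM in CRS and 0, 0.257 and 37.5 CPM in CON, as lowest, median and highest. CRS 4 alone gave 92.5% of the Ngp counts of its group. Camp, cathelicidin, the precursor of an antimicrobial peptide, had at most 3.08 CPM in C10, 6.15 CPM in CRS and 9.46 CPM in CON; group medians were 0.226, 0.218 and 0.0852 CPM. All of these medians are close to or under the level of 3 counts except that of Ngp in C10.

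Mpo (ENSMUSG00000009350, chr11:87793581-87804413, plus strand) encodes myeloperoxidase, which makes hypochlorous acid, and Elane (ENSMUSG00000020125, chr10:79886247-79888215, plus strand) neutrophil elastase. Mpo peaked at 3.38 CPM in C10, 1.57 CPM in CRS and 15.6 CPM in CON; its medians were 0.254, 0.0322 and 0.115 CPM. Elane peaked at 1.51 CPM in C10, 1.10 CPM in CRS and 8.40 CPM in CON; its medians were 0.168, 0 and 0.143 CPM, and 5 of the 6 CRS libraries had no Elane count. Mpo was at 0 in 7 of the 18 libraries, Elane in 8, Camp in 5 and Ngp in 2. Mpo overlaps an antisense gene, Gm11505, which had 0 counts.
In CRS against CON the log2 fold change was -2.23 ± 1.5 for Ngp (SE; edgeR adjusted p = 0.515). Without the count filter it was -0.99 ± 1.27 for Camp (edgeR adjusted p = 0.771), -3.59 ± 1.43 for Mpo (0.446) and -3.36 ± 1.32 for Elane (0.440). In C10 against CRS it was 0.63 ± 1.48 for Ngp (edgeR adjusted p = 0.905), -0.78 ± 1.34 for Camp (0.876), 1.37 ± 1.46 for Mpo (0.728) and 0.81 ± 1.44 for Elane (0.878). In C10 against CON it was -1.60 ± 1.46 for Ngp (edgeR adjusted p = 0.671), -1.77 ± 1.32 for Camp (0.597), -2.21 ± 1.29 for Mpo (0.525) and -2.55 ± 1.24 for Elane (0.505). The standard errors exceeded 1 on the log2 scale throughout, and 1 library could turn the sign: C10 against CRS for Ngp was -0.67 without C10 2 and for Elane -0.80. Without CRS 4 no CRS library has an Elane count, so the fold change of Elane in that setting is set by the prior count and is no estimate.

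**Figure D2:**
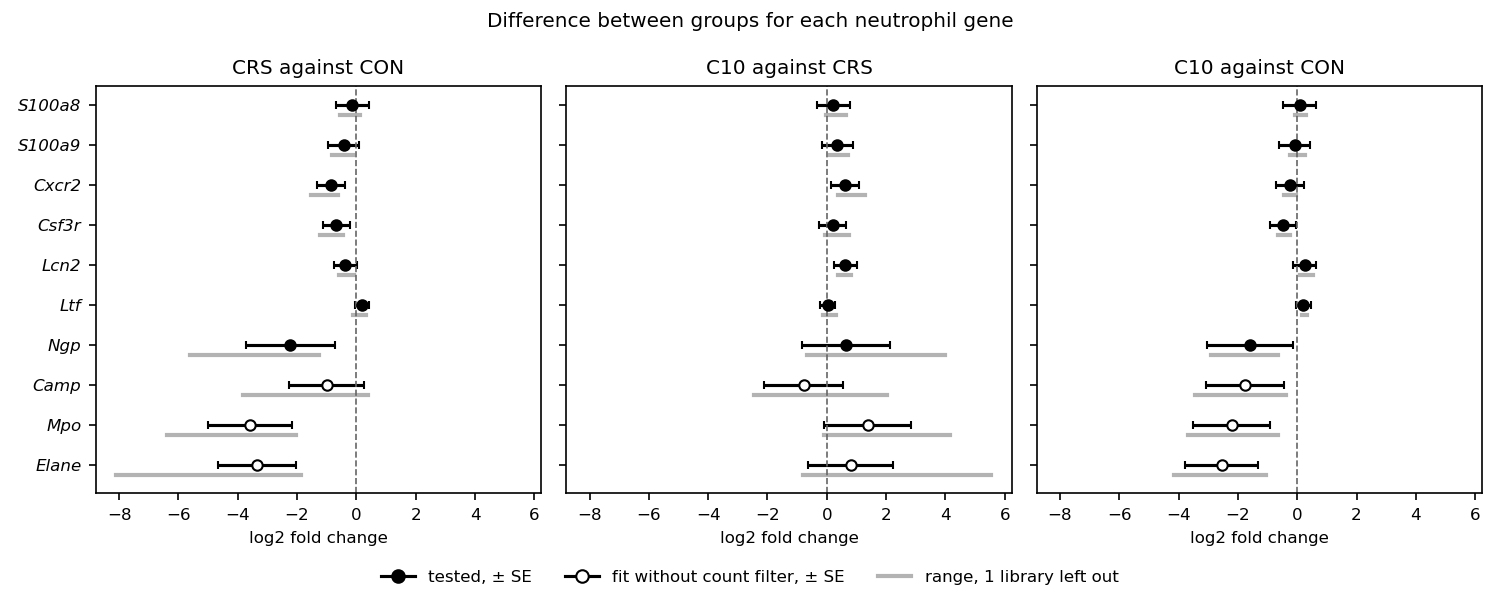
Log2 fold change of each neutrophil gene in CRS against CON, C10 against CRS and C10 against CON, with SE as error bars; open points come from the fit without a count filter, and grey bars give the range when 1 library is left out. The granule genes carry standard errors above 1, the far ends of the Elane bars in the comparisons with CRS come from leaving out CRS 4, after which CRS has no Elane count and the value depends on the prior count, and Cxcr2 in CRS against CON runs from -1.52 to -0.62 as libraries are left out.

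The 4 low granule genes were high in the same libraries. Summed over Ngp, Camp, Mpo and Elane, CON 5 had 1277 counts, CON 3 had 752, CRS 4 had 373, C10 2 had 372 and C10 4 had 100, while C10 1 had 52 and the other 12 had 0 to 13. These 5 libraries, which come from all 3 groups, held 95.7% of the Ngp counts of the series, 94.3% of Camp, 95.4% of Mpo and 95.5% of Elane. As 5 of the 18 libraries, they held 40.9% of S100a8, 40.5% of S100a9, 40.1% of Lcn2, 32.3% of Csf3r, 31.2% of Cxcr2 and 29.7% of Ltf. Since the libraries were picked by these very counts, the first set of shares describes the concentration and tests nothing. S100a8 and the 4 granule genes were apart in some libraries and high together in others. In CRS 1 S100a8 was 56.8 CPM, second of the 18, and the 4 granule genes summed to 0.756 CPM. In CRS 4, with the highest S100a8 of the 18 (61.9 CPM), the 4 granule genes summed to 21.6 CPM. CON 5 and CON 3 had the highest S100a8 of CON, 51.2 and 42.7 CPM. C10 2 and C10 4 had 35.7 and 22.5 CPM, within 22.0 to 47.2 CPM in C10.

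Markers of blood and bone differed among these libraries too. The 11 red blood cell genes in the table summed to 73.8 CPM in C10 4 and 362 CPM in C10 2, to 296 CPM in CRS 4, and to 1184 CPM in CON 3 and 432 CPM in CON 5. Over all libraries the sums ran from 73.8 to 362 CPM in C10, 76.7 to 328 CPM in CRS and 147 to 1184 CPM in CON. The 12 bone and osteoclast genes summed to 309 CPM in C10 4 and 441 CPM in C10 2, to 940.0 CPM in CRS 4, and to 1712 CPM in CON 3 and 1115 CPM in CON 5, within 224 to 587 CPM in C10, 228 to 940.0 CPM in CRS and 369 to 1712 CPM in CON. So CON 3, CON 5 and CRS 4, 3 of the 5, had the highest bone sums of all 18 libraries, while C10 4 had the lowest red blood cell sum. Libraries with few granule counts could also have higher bone sums than C10 2 and C10 4. CRS 1 had 792 CPM and CRS 3 had 676 CPM, with granule sums of 0.756 and 0.387 CPM. Slc4a1, the anion exchanger of red cells, was at the top of its group in C10 2 (5.97 CPM), CRS 4 (2.67 CPM) and CON 5 (19.4 CPM). In C10 4 it was the lowest of its group (0.111 CPM), and in CON 3 it was 4.29 CPM, below CON 5. Alas2, another red cell gene, was at the top of its group in C10 2 (10.5 CPM) and CON 3 (40.1 CPM). It was not in CRS 4 (3.02 CPM, against 6.89 CPM in CRS 3), CON 5 (12.8 CPM) or C10 4 (2.95 CPM). Rag1, which marks B cell precursors, had 35 counts in all, 16 of them in CON 3 and 5 in CON 5, and Vpreb1 at most 0.232 CPM (CRS 4). The 11 genes listed for B cell precursors together summed to 154 to 189 CPM in C10, 122 to 179.5 CPM in CRS and 97.5 to 156 CPM in CON, with CON 5 (97.5 CPM) and CON 3 (106 CPM) the lowest of the 18. Ebf1 alone averaged 117 CPM in C10 and 100 CPM in CRS. The sum therefore mostly follows Ebf1 and not Rag1 or Vpreb1, and is no measure of B cell precursors. The part of blood, bone or marrow in the granule gene levels was not tested.

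**Figure D3:**
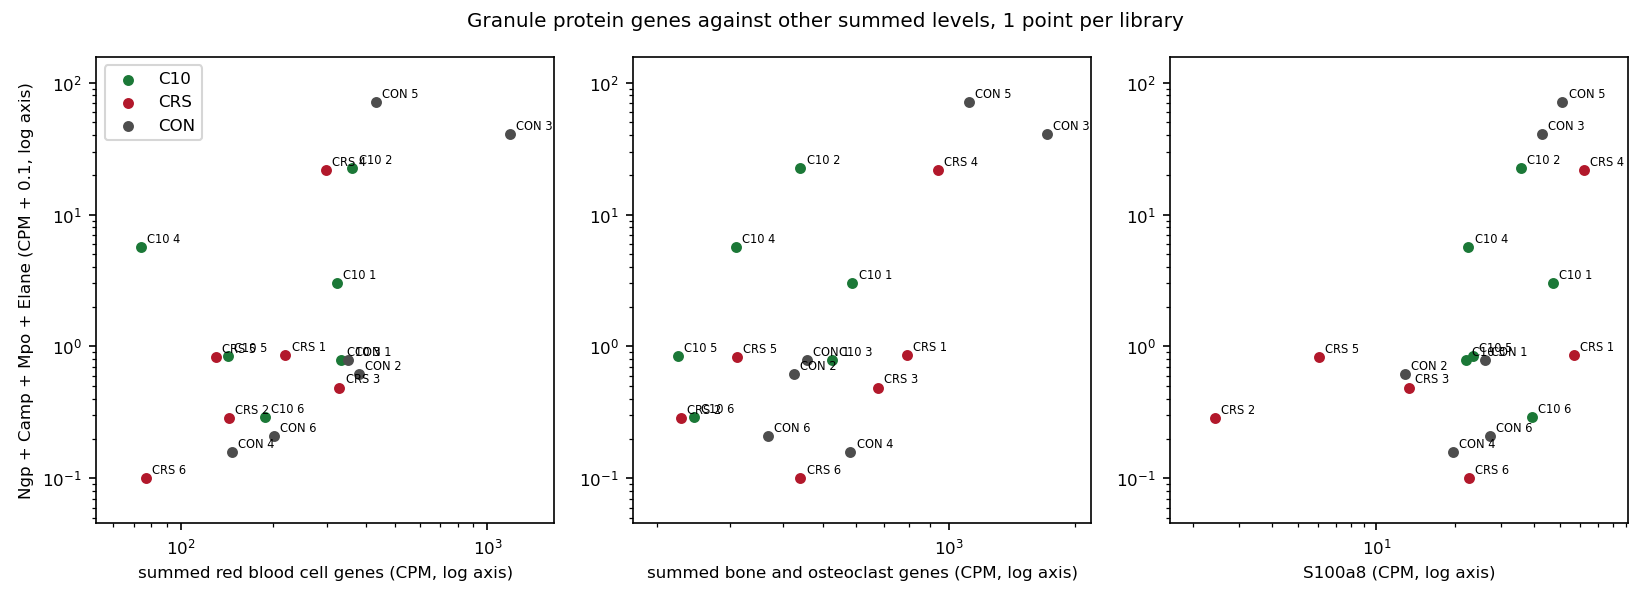
Summed CPM of Ngp, Camp, Mpo and Elane (plus 0.1, log axis) in each library against summed red blood cell genes, summed bone and osteoclast genes and S100a8, in C10, CRS and CON. CON 3, CON 5 and CRS 4 lie at the upper right of the bone panel, where CRS 1 and CRS 3 lie lower but to the right of C10 2 and C10 4. CRS 1 has high S100a8 at 56.8 CPM with a granule sum of 0.756 CPM, while CRS 4 has the highest S100a8 at 61.9 CPM with a granule sum of 21.6 CPM.

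Among the 6 genes counted in every library, pairs were related to different degrees. Of their 15 pairs, 10 had a correlation of log2 CPM over the 18 libraries with a permutation p under 0.05 after adjustment over the 45 pairs of all 10 genes. S100a8 and S100a9 were tied most closely: Pearson r was 0.97 (p = 1e-05, the smallest that 100000 permutations can give; adjusted 7.5e-05) and Spearman rho 0.94 (permutation p = 1e-05, adjusted 0.000225). It was 0.90 without CRS 2 and CRS 5, the libraries farthest from the median of S100a8, and 0.91, 1.00 and 0.82 within C10, CRS and CON. Cxcr2 and Csf3r had r 0.96 (permutation p = 1e-05, adjusted 7.5e-05) and rho 0.91 (permutation p = 1e-05, adjusted 0.000225), 0.90 without CRS 2 and CRS 5, and 0.87, 0.99 and 0.93 within C10, CRS and CON.

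Between the calprotectin genes and the receptors coefficients were lower. S100a9 and Cxcr2 had r 0.91 (permutation p = 3e-05, adjusted 0.00015) and rho 0.66 (permutation p = 0.00339, adjusted 0.0191), with r 0.63 without CRS 2 and CRS 5 and 0.92, 0.95 and 0.67 within C10, CRS and CON. S100a9 and Csf3r had r 0.86 (permutation p = 0.0001, adjusted 0.000409) and rho 0.64 (permutation p = 0.00515, adjusted 0.0232), with r 0.56 without them and 0.74, 0.91 and 0.68 within the groups. S100a8 and Csf3r had r 0.81 (permutation p = 0.0003, adjusted 0.00103) and rho 0.53 (permutation p = 0.0272, adjusted 0.057), with r 0.43 without CRS 2 and CRS 5 and 0.53, 0.88 and 0.58 within C10, CRS and CON. S100a8 and Cxcr2 had r 0.86 (permutation p = 9e-05, adjusted 0.000405) and rho 0.53 (permutation p = 0.0237, adjusted 0.057), with r 0.50 without the same libraries and 0.69, 0.93 and 0.53 within C10, CRS and CON. As deviations from group means these pairs of S100a8 had rho 0.65 with Csf3r (permutation p = 0.00739, adjusted 0.0256) and 0.73 with Cxcr2 (permutation p = 0.00202, adjusted 0.00909). Cxcr2 and Lcn2 had r 0.81 (permutation p = 0.00125, adjusted 0.00375) and rho 0.47 (permutation p = 0.0519, adjusted 0.0899), with r 0.33 without them and -0.10, 0.89 and 0.91 within C10, CRS and CON. Values of r were lower without CRS 2 and CRS 5 in each of these 5 pairs. Lcn2 and S100a9 had r 0.84 (permutation p = 0.0002, adjusted 0.00075) and rho 0.66 (permutation p = 0.00407, adjusted 0.020). Lcn2 and S100a8 had r 0.82 (permutation p = 0.00032, adjusted 0.00103) and rho 0.57 (permutation p = 0.0143, adjusted 0.049). Within C10 these r were 0.06 and 0.20. Lcn2 and Csf3r had r 0.80 (permutation p = 0.00227, adjusted 0.00638) and rho 0.41 (permutation p = 0.0957, adjusted 0.15). No pair with Ltf passed: its r ran from 0.13 with S100a8 (permutation p = 0.584, adjusted 0.641; rho -0.18, p = 0.472, adjusted 0.573) to 0.39 with Lcn2 (permutation p = 0.121, adjusted 0.191; rho 0.05, p = 0.844, adjusted 0.892). Without CRS 2 and CRS 5, r between Ltf and S100a8 was -0.53. No coefficient over the 18 libraries is given for Ngp, Camp, Mpo and Elane, with each other or with other genes, because 5 libraries stand apart from the rest. The genes most like Csf3r were Cd300lf (r 0.97), Fgr (0.97), Cd101 (0.96), Ccr1 (0.96) and Nlrp12 (0.96), and those most like S100a8 were Tmem156 (0.91), Aqp9 (0.88), Srgn (0.88), Retnlg (0.87) and Gm32815 (0.87).

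Other genes of the neutrophil programme gave the same picture of values without calls. Of 34 further neutrophil genes 26 were tested, and edgeR called 0 in either direction in all 3 comparisons. For CRS against CON 23 of the 26 lay below 0, with a median log2 fold change of -0.45 against 0.00 for all genes. With C10 against CRS 17 of 26 lay above 0, with a median of 0.16, and in C10 against CON 20 of 26 below 0, with a median of -0.35. The comparisons share libraries, so these signs are not separate observations. Mmp9, the gelatinase of neutrophil granules, had a mean of 44.2 ± 33.4 CPM in the CRS group, against 97.6 ± 37.5 CPM in the CON group (SD, n = 6 each), a difference of -1.14 ± 0.42 (SE, log2; adjusted p of edgeR 0.254). Pglyrp1, a peptidoglycan recognition protein of granules, went the other way, at 993 ± 371 CPM in CRS and 643 ± 82.6 CPM in CON (0.63 ± 0.21; edgeR adjusted p = 0.230). Lrg1, a leucine-rich glycoprotein of granules and serum, had a mean of 45.9 ± 31.6 CPM in CRS, against 81.1 ± 39.4 CPM in CON (-0.82 ± 0.37; edgeR adjusted p = 0.333). Of the rest of the pathway, 12 early granule and granulopoiesis genes, such as Prtn3, proteinase 3, had 8 tested and 0 called, with medians of -0.24 in CRS against CON, 0.00 in C10 against CRS and -0.12 in C10 against CON.

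Genes listed as neutrophil attractants and growth factors mostly had log2 fold changes below 0 in C10 and in CRS against CON, without a call. The list also holds receptors, such as Cxcr4, C5ar1 and Ltb4r1, and enzymes, such as Alox5 and Lta4h, so it is not made of recruiting signals alone. Of 26 attractants and growth factors 23 were tested and edgeR called 0 in each comparison. In CRS against CON 22 of 23 lay below 0, with a median of -0.62, in C10 against CRS 13 of 23 lay above 0, with a median of 0.06, and in C10 against CON 19 of 23 below 0, with a median of -0.43. Both comparisons with CON share its libraries, so the 2 sets of signs are not separate observations. The summed level of the 26 genes was 1203 CPM in CON 3 and 427 to 662 CPM in the other CON libraries. The part of CON 3 in these signs was not tested. Cxcl1, a ligand of Cxcr2, averaged 4.16 ± 0.613 CPM in C10, 4.16 ± 2.29 CPM in CRS and 9.50 ± 5.37 CPM in CON (SD, n = 6 each); its log2 fold change was -1.19 ± 0.42 (SE) in CRS against CON (edgeR adjusted p = 0.244) and -1.19 ± 0.42 in C10 against CON (edgeR adjusted p = 0.242). Il6, a cytokine of acute inflammation, averaged 0.466 ± 0.160 CPM in C10, 0.807 ± 0.708 CPM in CRS and 3.17 ± 4.53 CPM in CON; the log2 fold change was -1.96 ± 0.74 in CRS against CON (edgeR adjusted p = 0.269) and -2.74 ± 0.78 in C10 against CON (edgeR adjusted p = 0.163). Csf2, the growth factor GM-CSF, went the other way, at 0.983 ± 0.244 CPM in CRS and 0.470 ± 0.217 CPM in CON (1.05 ± 0.34; edgeR adjusted p = 0.227). Cxcl5, another Cxcr2 ligand, averaged 178 ± 57.7 CPM in C10 and 97.3 ± 59.6 CPM in CRS (0.87 ± 0.39; edgeR adjusted p = 0.345). Of 19 granule and calprotectin partners, such as Tlr4 and the subunits of the NADPH oxidase, 18 were tested and 0 called, with medians of -0.15 in CRS against CON, -0.10 in C10 against CRS and -0.25 in C10 against CON. Macrophage and monocyte genes, 14 of 14 tested with 0 called, had medians of -0.46 in CRS against CON, -0.20 in C10 against CRS and -0.73 in C10 against CON. Their summed level was 425 to 878 CPM in C10, 265 to 1414 CPM in CRS and 593 to 1449.7 CPM in CON, lowest in CRS 2, the library that was also lowest for the calprotectin and receptor genes; its part in those levels was not tested.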

How the data were processed

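Total RNA of nasal mucosa was selected for poly(A) and sequenced in 18 libraries, per the labels' protocols, with a kit for which strand information is not described. The deposited table of the authors holds raw counts per gene, and the deposited FPKM table of the authors was used to compare levels between genes and as an alternative scale. The genome build is mm10, per the submitters' processing notes; the aligner, the counter and the annotation: not given in the sources used here.

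Counts were fitted with edgeR 4.0.16 in R 4.3.3 (filterByExpr by group, 18291 of 54532 genes kept, TMM factors, quasi-likelihood F-test, all 18 libraries, 1 mean per group). Two-sided p-values were adjusted by Benjamini-Hochberg over all genes tested, and under 0.05 counts as called. CPM uses TMM-scaled library sizes, and log2 CPM a prior count of 2. Camp, Mpo and Elane were taken from the fit without a filter. Alternatives were RLE factors, other filters, a replicate block, only the 2 groups compared, DESeq2 1.42.0, limma-voom and limma 3.58.1 on log2 of FPKM plus 1 or 0.1, and libraries left out. The edgeR fit was tested on simulated data. Promoters come from RefSeq (GRCm38.p6), and all 10 genes matched.

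The genes, lists, tests and alternatives were chosen with earlier results of these data known. Besides the 10, the text names the 3 genes of smallest p from each neutrophil list and comparison, or some of them, the 5 genes most like a member, and defining markers; of the markers and listed genes, those given were selected after their values were seen. Library numbers do not pair the groups: same-numbered libraries had correlations of deviations from -0.57 to 0.52, over 0.1 in 8 of 18 pairs. No 2 libraries were copies, with a chi-square per degree of freedom of at least 13.5.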

Additional observations from a re-analysis of the deposited data

Results flagged for a closer look

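In 30 sets of 6 libraries, 1 for each gene and group, the gap between the highest or lowest library and its neighbour was set against the whole range on the log2 CPM scale, and 7 exceeded the critical value of Dixon's test at the 95% level; chance alone gives about 1 in 20. CRS 4 stood apart from the other CRS libraries for 4 genes: the ratio was 0.652 for Ngp (12.8 CPM), 0.686 for Camp (6.15 CPM), 0.741 for Mpo (1.57 CPM) and 1.0 for Elane (1.10 CPM). The other CRS libraries had no Elane count, which fixes that ratio at 1.0. C10 2 stood apart for Elane, with a ratio of 0.637 at 1.51 CPM. C10 1 had the lowest Ltf of its group, 10972 CPM, with a ratio of 0.66. CRS 2 had the lowest Lcn2 of the series, 103 CPM, with a ratio of 0.646. The same 18 libraries underlie all of these values, so they are not separate observations.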

How the results depend on the processing

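Over 30 log2 fold changes (10 genes, 3 comparisons) and 28 settings, 829 alternative values were obtained; 789 kept direction and side of the threshold, 38 turned sign in 17 of the 30, and 2 passed where the reported value did not. The stricter filter gave no value for Camp, Mpo and Elane. The fits of only the 2 groups compared gave none for Ngp in CRS against CON or in C10 against CRS. The 2 that passed were Cxcr2 in CRS against CON, with limma-voom (-1.39) and without CRS 1 (-1.52), which made members called 1 there; leaving out any other library gave 0 called there, and leaving out any library gave 0 in the other comparisons (0 to 1 over all). Genes called over the whole table moved widely. In CRS against CON edgeR called 1, against 3 with the stricter filter, 0 with the replicate block, 0 with only the 2 groups compared, 179 with DESeq2, 940 with limma-voom, 2 with FPKM plus 1 and 2 with FPKM plus 0.1, and 0 to 994 with 1 library left out (994 without CRS 1). In C10 against CRS it called 15, against 23 with the stricter filter, 9 with only the 2 groups, 350 with DESeq2, 548 with limma-voom, 23 with FPKM plus 1, 100 without CRS 2 and CRS 5 and 7 to 81 with 1 library left out. In C10 against CON it called 29, against 17 without a filter, 12 with the replicate block, 161 with only the 2 groups, 318 with DESeq2, 252 with limma-voom, 74 without CRS 2 and CRS 5 and 3 to 110 with 1 library left out. The numbers do not pair the libraries; with the replicate block 0 neutrophil genes were called, the smallest edgeR adjusted p being 0.22. Sign turned with limma-voom for Camp in C10 against CRS (1.57) and, in C10 against CON, S100a9 (0.16), Ngp (2.51), Camp (1.33) and Mpo (0.79). With log2 of FPKM plus 1 S100a9 in C10 against CON was 0.040, and with FPKM plus 0.1 it was 0.041 and Ngp 0.25. Without CRS 2 and CRS 5, CRS against CON gave 0.38 for S100a8 and 0.072 for S100a9, and C10 against CRS gave -0.31 for S100a8, -0.16 for S100a9, -0.24 for Csf3r and -0.19 for Ltf. Leaving out 1 library in CRS against CON gave -0.56 to 0.11 for S100a8, -0.10 to 0.32 for Ltf and -3.82 to 0.40 for Camp. In C10 against CRS it gave -0.040 to 0.63 for S100a8, -0.051 to 0.75 for Csf3r, -0.12 to 0.30 for Ltf, -0.67 to 4.0 for Ngp, -2.45 to 2.05 for Camp, -0.11 to 4.17 for Mpo and -0.80 to 5.55 for Elane, the upper end, without CRS 4, being set by the prior count since no CRS library then has an Elane count. In C10 against CON it gave -0.075 to 0.30 for S100a8 and -0.23 to 0.25 for S100a9. On other scales 16 (FPKM plus 1) and 19 (deviations from group means) of the 45 pairs of genes had an adjusted permutation p under 0.05, against 16 on log2 CPM. Among the 15 pairs of the 6 genes counted in every library it was 10 on each scale. All further pairs that passed involve Ngp, Camp, Mpo or Elane, where 5 libraries stand apart from the rest. The cause of these shifts was not tested. Depth limits Ngp, Camp, Mpo and Elane, whose group medians lie near or under the level of 3 counts except that of Ngp in C10.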

Other observations

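Libraries with enough granule counts did not share them out alike. Of the summed counts of Ngp, Camp, Mpo and Elane, Camp took 13.7% in C10 2 (exact 95% interval 10.4% to 17.6%), 9.0% in C10 4 (4.20% to 16.4%), 28.4% in CRS 4 (23.9% to 33.3%), 10.4% in CON 3 (8.29% to 12.8%) and 13.3% in CON 5 (11.5% to 15.3%). Mpo took 15.1% in C10 2 (11.6% to 19.1%), 8.0% in C10 4 (3.52% to 15.2%), 7.24% in CRS 4 (4.82% to 10.4%), 14.5% in CON 3 (12.1% to 17.2%) and 22.0% in CON 5 (19.8% to 24.4%), so its share in CRS 4 lay within the interval of C10 4. These intervals cover counting error in single libraries only and say nothing of the groups.

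Neutrophil genes outside the 10 went both ways in C10 without passing, with Cd177 and Olfm4 above CRS, Pglyrp1 below CRS and Cxcr1 below CON. Cd177 averaged 413 ± 153 CPM in C10 and 202 ± 93.7 CPM in CRS (SD, n = 6 each), a difference of 1.03 ± 0.37 (SE, log2; adjusted p of edgeR 0.241), and Olfm4, a marker of a neutrophil subset that epithelium also makes, 29.0 ± 20.4 CPM in C10 and 11.9 ± 8.47 CPM in CRS (1.28 ± 0.55; edgeR adjusted p = 0.328). Cd177 followed Lcn2 over the 18 libraries (Pearson r 0.94), and its highest library, C10 4 (629 CPM), had S100a8 at only 22.5 CPM. Whether the Cd177 level is a measure of neutrophils in this tissue was not tested, nor was its source. Pglyrp1 averaged 647 ± 147 CPM in C10 and 993 ± 371 CPM in CRS (-0.62 ± 0.21; edgeR adjusted p = 0.213). Cxcr1, the companion receptor of Cxcr2, averaged 0.195 ± 0.0993 CPM in C10 and 0.582 ± 0.262 CPM in CON (-1.53 ± 0.67; edgeR adjusted p = 0.336), close to the level of 3 counts.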
